A study of Arabidopsis thaliana with 2 samples.

Results

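The 10 genes described here encode the enzymes that make small RNAs and their long precursors in Arabidopsis thaliana: the Dicer-like nucleases DCL1, DCL2, DCL3 and DCL4, the RNA-dependent RNA polymerases RDR1, RDR2 and RDR6, and the large subunits NRPD1, NRPE1 and NRPD2 of the plant-specific RNA polymerases Pol IV and Pol V. They were chosen by locus identifier, and all 10 had values in the deposited table, out of 33557 identifiers with values. RNA was measured by sequencing in hand-collected mature ovules of 2 genotypes, with 1 library each. The first genotype was myb98, which carries a mutation of MYB98, a transcription factor of the synergid cells beside the egg cell. The second was labelled wild-type and was taken from unpollinated ovules of the male-sterile line ms1, so that the ms1 background and the absence of the myb98 mutation cannot be told apart in it. The labels of both libraries give 1 protocol, which names wild-type plants: emasculation at floral stage 12 and, after 36 hours, collection of ovules by hand from about 50 pistils. The sources used here do not name the myb98 or ms1 allele or the accession.

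Levels are in FPKM: fragments counted on a gene, divided by its transcript length and by library size. With 1 library per genotype there is no replicate error and no test, and no difference below has a replicate check. MYB98 itself stood at 0.474 FPKM in myb98 ovules and 1.35 FPKM in wild-type ovules, in the direction of the labels. The synergid attractant genes LURE1.2, LURE1.3 and LURE1.4 stood at 0 to 0.211 FPKM in myb98 ovules and at 81.7 to 191 FPKM in wild-type ovules. All 5 ovule and integument markers were present, from 3.47 to 123 FPKM in myb98 ovules and from 4.94 to 106 FPKM in wild-type ovules. The 5 egg cell markers EC1.1 to EC1.5 stood at 33.04 to 62.65 FPKM in myb98 ovules and at 23.26 to 68.89 FPKM in wild-type ovules. Of them 3 were higher and 2 lower in the myb98 library, and EC1.5 differed most, at 56.78 and 24.35 FPKM (myb98 and wild-type). Of 3 pollen markers, ANX2 was listed at 0 in both libraries, VGD1 had 0.0739 and 0.0273 FPKM, and ANX1 had 1.26 and 1.28 FPKM (myb98 and wild-type). The libraries held about 42200000 fragments (myb98) and 50600000 fragments (wild-type), estimated from the lowest values in the table. These are whole ovules, in which fewer cells of a type and less RNA per cell cannot be told apart.

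In plants, Dicer-like enzymes cut double-stranded RNA into microRNAs and small interfering RNAs, which Argonaute proteins use to cleave mRNA or to direct DNA methylation. RNA-dependent RNA polymerases copy single-stranded transcripts into the double strands that Dicers need. Pol IV makes the precursors of heterochromatic siRNAs, RDR2 copies them and DCL3 cuts them, while Pol V makes the scaffold transcripts to which the siRNAs guide the methylation machinery, a route called RNA-directed DNA methylation (RdDM). In the ovule, mutants of several of these genes are known to form additional cells that resemble megaspore mother cells.

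DCL1 carries its own feedback in its sequence, which is shown here because its transcript and both miRNA genes have values in the table. The microRNA miR162 pairs with the DCL1 mRNA and directs its cleavage, and another microRNA, miR838, lies in a DCL1 intron, so that processing of the intron by DCL1 and full splicing of the mRNA compete. The mature strands were read from the TAIR10.1 genome (RefSeq), with bases 2 to 8, the seed, in capitals. In the DCL1 site the capital marks the only base that has no partner in miR162.
miR162a: tCGATAAAcctctgcatccag
DCL1 site: ctggatgcagaggtAttatcga
miR838: tTTTCTTCtacttcttgcaca
The miR162a strand lies at chr5:2634936-2634956 on the minus strand. The DCL1 site is 22 bases long, at transcript bases 3447 to 3468 of 6276, and it is coding throughout. It spans an exon junction, with 12 bases at the end of exon 12 (chr1:27522-27533, plus strand) and 10 at the start of exon 13 (chr1:27618-27627). With 1 base unpaired, at position 15 of the site, it matched miR162a with 0 mismatches, whereas without a bulge the closest stretch of the transcript had 6. The miR838 strand lies at chr1:28635-28655, in intron 14.

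**Figure D1:**
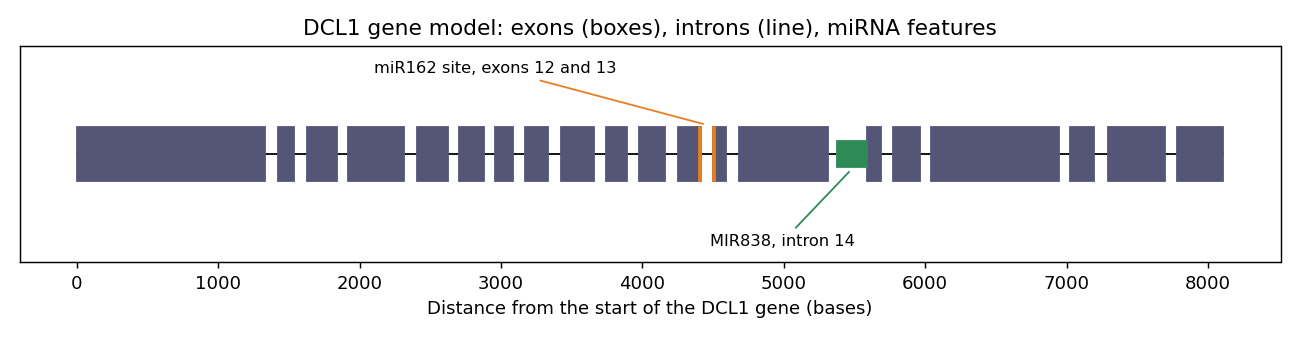
Gene model of DCL1, drawn to scale against the distance in bases from the start of the gene, with exons as boxes and introns as the line between them. The miR162 site is split over exons 12 and 13, and the 207-base MIR838 precursor fills much of intron 14.

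The miRNA genes were low, and they were picked after their values were seen. MIR162a (AT5G08185) had 3.57 FPKM in myb98 ovules and 2.72 FPKM in wild-type ovules, and MIR162b (AT5G23065) was listed at 0 in both. MIR838 (AT1G01046) had 1.32 FPKM in myb98 ovules and was listed at 0 in wild-type ovules. Precursors of 111 to 207 nt give few fragments, about 12 for MIR838 in the myb98 library by the depth estimate, and a value of 0 can be a failed estimate. FPKM of these loci are of precursor RNA and give no level of the mature miRNA.

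The polymerase members share a short aspartate motif of the active site, although RDRs and Pol IV/V are unlike in most of their sequence. Below are the codons around the loop whose aspartates hold the catalytic metal ion, with the codons of those aspartates in capitals. NRPB1, the largest subunit of Pol II, is set beside them.
RDR1: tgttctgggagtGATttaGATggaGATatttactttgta
RDR2: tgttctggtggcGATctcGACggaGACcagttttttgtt
RDR6: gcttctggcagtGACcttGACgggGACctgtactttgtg
NRPD1: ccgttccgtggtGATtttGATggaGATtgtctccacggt
NRPE1: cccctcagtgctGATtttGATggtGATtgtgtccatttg
NRPB1: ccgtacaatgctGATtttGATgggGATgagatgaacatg
Each pattern occurred 1 time in its coding sequence and lay in a single exon, at chr1:5095306-5095344 (RDR1, minus strand), chr4:6783376-6783414 (RDR2, plus), chr3:18350593-18350631 (RDR6, minus), chr1:23359171-23359209 (NRPD1, minus), chr2:16717447-16717485 (NRPE1, plus) and chr4:16965700-16965738 (NRPB1, minus), all in TAIR10.1. Of 39 bases, the RDRs shared 26 or 27 with each other, NRPD1 shared 29 with NRPE1 and 25 with NRPB1, and an RDR shared 16 to 21 with any of the polymerase subunits.

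All 10 genes were expressed at modest levels in both libraries, and all 10 values were lower in the myb98 library. A gene counts as expressed at 1 FPKM or more in either library, which held for 16303 genes. Levels ran from 2.84 (DCL3) to 14.4 FPKM (NRPD2) in myb98 ovules and from 3.97 (RDR1) to 15.5 FPKM (NRPD2) in wild-type ovules. The median of their log2 ratios, log2((myb98 FPKM + 1)/(wild-type FPKM + 1)), was -0.33, against 0 over all expressed genes, and the range was -0.61 to -0.10. By size, 0 of the 10 passed a 4-fold rule (log2 ratio of 2 or more in size), which 0.712% of all expressed genes passed downward and 0.282% upward. At 2-fold (1 or more), 0 of the 10 passed, against 2.74% of all expressed genes downward and 2.95% upward. The ratio was below 0 for 50.4% of all expressed genes and above 0 for 49.6%. Among the other 829 genes in the length range of the 10 transcripts, 3717 to 6517 nt, it was below 0 for 90.1%, and 4.22% were lower by 2-fold. The 10 of 10 is to be read against that share of 90.1%.

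**Figure D2:**
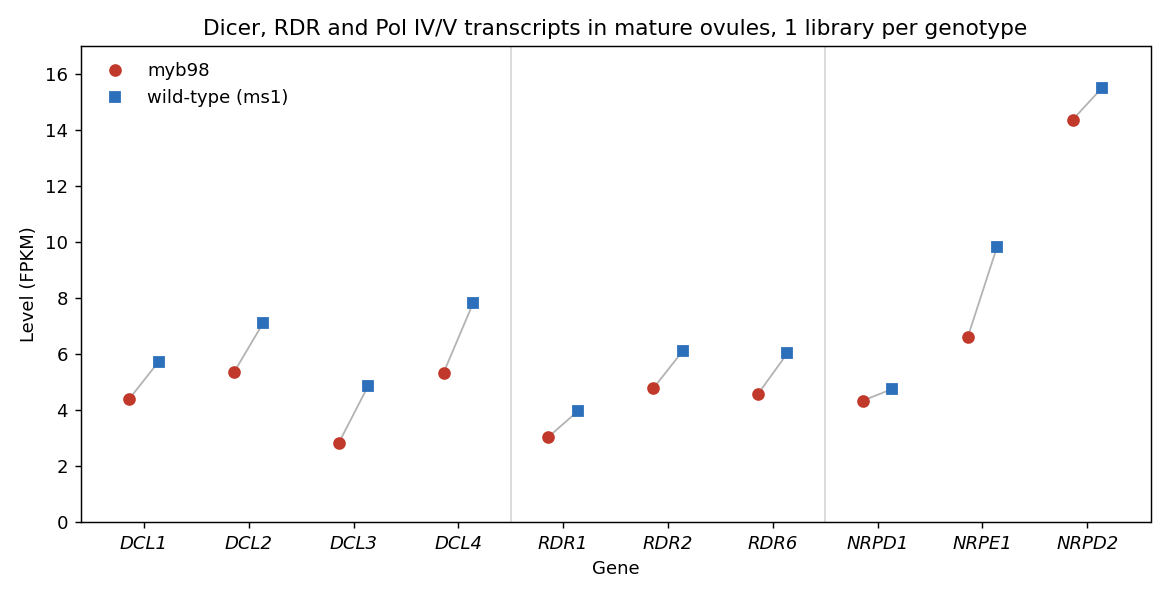
Level in FPKM (vertical axis, from 0) of each of the 10 genes in the myb98 library (red circles) and the wild-type library (blue squares), 1 library per genotype and so no error bars. The red point lies below the blue one for every gene, with NRPD2 the highest at 14.4 and 15.5 FPKM.

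DCL1 (AT1G01040), the Dicer of microRNAs, had 4.40 FPKM in the myb98 library and 5.73 FPKM in the wild-type library, a log2 ratio of -0.32. The gene occupies chr1:23121-31227 (TAIR10.1, plus strand) and its longest transcript has 20 exons. DCL2 (AT3G03300), which makes siRNAs from viruses and transgenes, had 5.36 and 7.13 FPKM in the same order of libraries, a log2 ratio of -0.35. The values of both were lower by similar proportions, at 76.9% of the wild-type level for DCL1 and 75.2% for DCL2.

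DCL3 (AT3G43920), the Dicer of heterochromatic siRNAs, had 2.84 FPKM in myb98 ovules and 4.87 FPKM in wild-type ovules. At 58.3% of its wild-type level and a log2 ratio of -0.61, it had the lowest ratio of the 10 genes. By level it had rank 10 of 10 in the myb98 library and rank 8 in the wild-type library. DCL4 (AT5G20320), which cuts trans-acting siRNA precursors copied by RDR6, had 5.34 FPKM in myb98 ovules and 7.81 FPKM in wild-type ovules, a log2 ratio of -0.47. Summed over the 4 Dicers, the level was 17.9 FPKM in the myb98 library and 25.5 FPKM in the wild-type library. The make-up of the sum was similar, with DCL4 at 29.8% and 30.6% of it, DCL2 at 29.9% and 27.9%, DCL1 at 24.5% and 22.4%, and DCL3 at 15.8% and 19.1% (myb98 and wild-type).

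The 3 RDR genes differed between the libraries by nearly the same proportion. RDR1 (AT1G14790), an antiviral polymerase known to be induced by salicylate, had 3.05 FPKM in myb98 ovules and 3.97 FPKM in wild-type ovules. RDR2 (AT4G11130), the partner of Pol IV, had 4.78 FPKM in myb98 ovules and 6.11 FPKM in wild-type ovules. RDR6 (AT3G49500), which copies trans-acting siRNA precursors and transgene RNA, had 4.58 FPKM in myb98 ovules and 6.04 FPKM in wild-type ovules. Their log2 ratios were -0.30, -0.30 and -0.33, which correspond to 76.8%, 78.3% and 75.9% of the wild-type level. Each gene's share of the family sum moved by less than 1 percentage point: RDR2 made up 38.5% in myb98 ovules and 37.9% in wild-type ovules, RDR6 36.9% and 37.5%, and RDR1 24.6% in both.

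The Pol IV and Pol V subunits were less alike. NRPD1 (AT1G63020), the largest subunit of Pol IV, had 4.34 FPKM in myb98 ovules and 4.76 FPKM in wild-type ovules, a log2 ratio of -0.11. NRPE1 (AT2G40030), the largest subunit of Pol V, had 6.60 FPKM in myb98 ovules and 9.83 FPKM in wild-type ovules, a log2 ratio of -0.51. NRPE1 thus stood at 1.52 times NRPD1 in the myb98 library and at 2.07 times NRPD1 in the wild-type library. NRPD2 (AT3G23780), the second-largest subunit that both enzymes use, had 14.4 FPKM in myb98 ovules and 15.5 FPKM in wild-type ovules, a log2 ratio of -0.10. It exceeded NRPD1 and NRPE1 together, which summed to 10.9 FPKM in myb98 ovules and 14.6 FPKM in wild-type ovules.

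NRPD2 stood above 77.6% of the expressed genes in the myb98 library and 79.5% in the wild-type library, and NRPE1 above 52.4% and 65.7% of them. NRPD2 and NRPE1 held ranks 1 and 2 in both libraries, and RDR2, RDR6 and DCL1 held ranks 5, 6 and 7. DCL2 and DCL4 changed places at ranks 3 and 4, but they stood at 5.36 and 5.34 FPKM in the myb98 library. Without replicates, no spread is known against which neighbours in this order could be told apart.

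Some of these genes could share reads with others, and the sources used here do not say whether the libraries keep strand. NRPD2 is 94.7% identical over 3036 aligned bases and 92.6% identical over a further 729 to NRPD2B (AT3G18090), which had 1.81 FPKM in myb98 ovules and 2.24 FPKM in wild-type ovules, so reads can be split between them. The longest annotated DCL2 transcript shares 515 nt of exon (10.7%) with AT3G03305 on the same strand, a gene at 7.14 FPKM in myb98 ovules and 6.16 FPKM in wild-type ovules. DCL1 exons overlap 58 nt of AT1G01050 and 788 nt (12.6%) of the long noncoding RNA AT1G03993, both on the opposite strand, and RDR1 exons overlap 192 nt of AT1G14780, also opposite. The remaining 6 genes had no exonic overlap with an annotated gene, and no other transcript aligned to them over 50 bases or more.

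The ratio between these libraries ran with transcript length, and this sets the level against which the 10 long genes are to be read. Expressed genes with transcripts of 600 to 1000 nt (n = 1796) had a median log2 ratio of 0.32. The median was -0.24 for transcripts of 3000 to 4000 nt (n = 1252) and -0.47 for those of 5000 to 7000 nt (n = 204), of which 95.1% were lower in the myb98 library. Across 16212 expressed nuclear genes Spearman's rho between length and log2 ratio was -0.36, a description across genes of the same 2 libraries. The cause of this trend was not tested.

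Each of the 10 genes was set beside the 500 expressed nuclear genes nearest to it in transcript length. After the median of those genes was subtracted, the median of the 10 was -0.01, with 6 below 0 and 4 above. DCL2, RDR1, RDR2, RDR6 and DCL4 lay within 0.08 of genes of their length. DCL1 was 0.08 above and NRPE1 0.11 below. These 7 lay within the interquartile range of their length group. For the longest transcripts the 500 nearest genes were mostly shorter, with a median length of 4947 nt for the 6276-nt DCL1 and 4974 nt for the 6517-nt NRPE1. Against the 100 nearest genes, an alternative chosen after seeing the data, DCL1 was 0.17 above and outside the interquartile range, and NRPE1 0.02 below and inside it.

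The other 3 lay outside that range. By definition the range leaves out as many genes of a length group as it holds, so a place outside it does not set a gene apart. DCL3 was 0.25 below its length group, in which 21.8% of genes had a lower ratio. NRPD1 was 0.27 above, with 85.6% of its length group lower, and NRPD2 was 0.21 above, with 77.2% lower. DCL3 and NRPD1 were thus the genes farthest below and farthest above genes of their own length. Against the 100 nearest genes these 3 offsets were -0.23, 0.28 and 0.19 for DCL3, NRPD1 and NRPD2, again outside the interquartile range. None of these offsets reaches 2-fold.

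**Figure D3:**
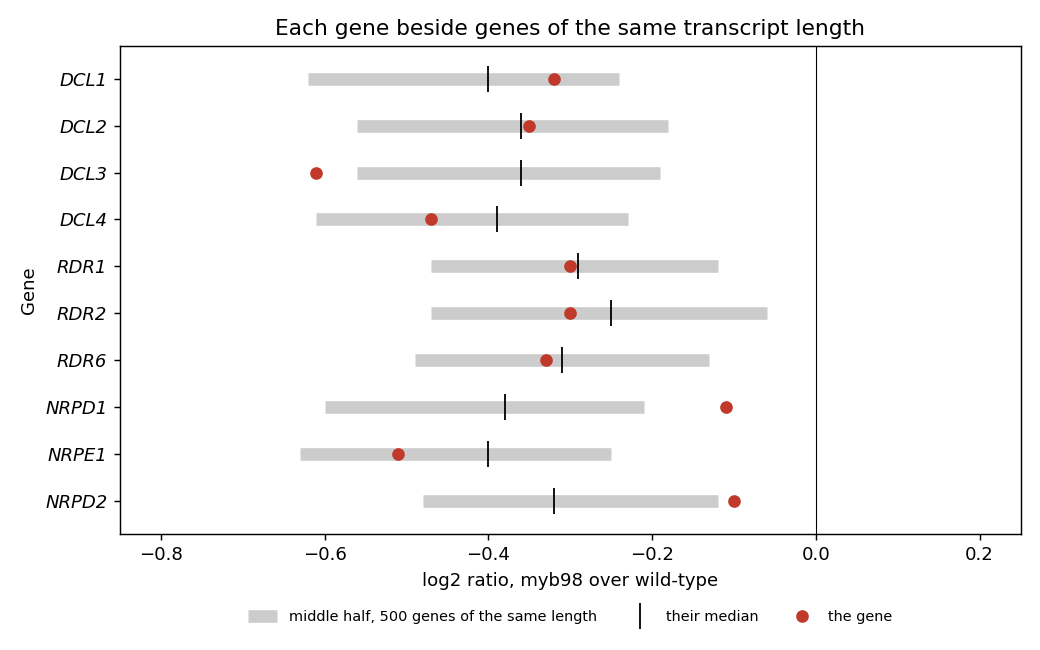
Log2 ratio, myb98 over wild-type, of each gene (red point) beside the median (black tick) and interquartile range (grey bar) of the 500 genes nearest in transcript length. DCL3 lies left of its bar, NRPD1 and NRPD2 lie right of theirs, and the other 7 lie on them.

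The large subunits of Pol IV, Pol V and Pol II lay below 0, and most of their small subunits lay above it. NRPB1 (AT4G35800), the largest subunit of Pol II, had 14.5 FPKM in myb98 ovules and 24.4 FPKM in wild-type ovules (log2 ratio -0.71), and NRPB2 (AT4G21710), its second subunit, had 11.4 and 15.3 FPKM (-0.40). NRPD1, NRPE1, NRPD2, NRPB1 and NRPB2, with transcripts of 4052 to 6517 nt, were all lower. Of 17 subunit genes with transcripts of 606 to 1939 nt, 15 were higher and 2 lower, and their median was 0.38. After subtraction of genes of the same length, the median was -0.11 for the 5 long genes and 0.15 for the 17 short ones. The long genes were then on both sides of 0. NRPD1 (0.27) and NRPD2 (0.21) were above, and NRPB1 (-0.31), NRPE1 (-0.11) and NRPB2 (-0.11) below.

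Among the 14 smaller subunits of Pol IV and Pol V, most of them shared with Pol II, 12 were higher and 2 lower (median 0.33), and 1 passed the 2-fold rule. It was NRPB12 (AT5G41010), a subunit common to the nuclear polymerases, at 31.7 FPKM in myb98 ovules and 12.4 FPKM in wild-type ovules (log2 ratio 1.28). Against genes of its length its ratio was 0.88 and no longer past the rule. NRPB10 had 58.5 and 35.3 FPKM, NRPE9B 5.82 and 3.16 FPKM, and NRPB8B 35.7 and 23.3 FPKM (myb98 and wild-type). Of the Pol II subunits that Pol IV and Pol V do not use or that differ between them, NRPB4 had 44.9 and 26.9 FPKM, NRPB5 44.1 and 33.6 FPKM, and NRPB7 8.89 and 4.72 FPKM in the same order. Against genes of the same length the median of the 14 smaller subunits was 0.09, with 8 above and 6 below 0.

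**Figure D4:**
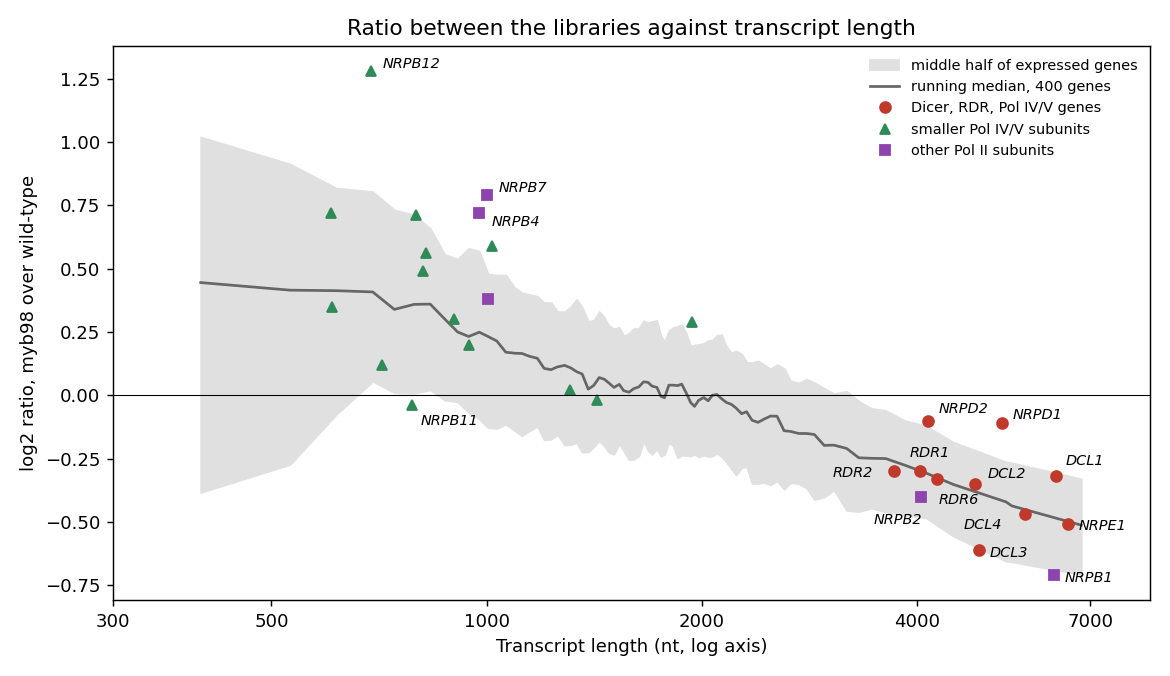
Log2 ratio, myb98 over wild-type, against transcript length in nt on a log axis, for the 10 genes (red circles), the 14 smaller Pol IV and Pol V subunits (green triangles) and 5 Pol II subunits (purple squares). The grey line and band are the running median and interquartile range of 400 expressed genes (150 for the longest), and the red points follow the fall of the line at long transcripts.

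The other RDR genes of Arabidopsis, RDR3, RDR4 and RDR5, had low values. RDR3 (AT2G19910) had 0.835 FPKM in myb98 ovules and 0.671 FPKM in wild-type ovules. RDR4 (AT2G19920) had 0.338 and 0.227 FPKM and RDR5 (AT2G19930) 0.516 and 0.653 FPKM in the same order. All 3 were under 1 FPKM in both libraries.

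Among proteins that work with Dicers, 15 of 17 genes were expressed, 7 lower and 8 higher (median 0.08), and 1 passed the 2-fold rule, downward. It was DRB3 (AT3G26932), a double-stranded RNA-binding protein of antiviral methylation, at 10.4 FPKM in myb98 ovules and 24.5 FPKM in wild-type ovules (log2 ratio -1.16, or -1.13 against genes of its length). DDL (AT3G20550), a forkhead-domain protein that binds DCL1, had 6.43 FPKM in myb98 ovules and 12.0 FPKM in wild-type ovules, and TGH (AT5G23080), an RNA-binding partner of DCL1, had 3.76 and 6.45 FPKM. CPL1 (AT4G21670), a phosphatase of the DCL1 partner HYL1, had 5.83 and 4.00 FPKM. Of its length group, 99.2% had a lower ratio.

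Partners of RDR6 and RDR2 did not pass the 2-fold rule. SGS3 (AT5G23570), which stabilises the RNA that RDR6 copies, had 9.68 FPKM in myb98 ovules and 13.95 FPKM in wild-type ovules. The helicase gene SDE3 (AT1G05460) had 4.98 and 7.83 FPKM, SDE5 (AT3G15390) 2.73 and 2.68 FPKM, and TEX1 (AT5G56130) of the THO complex 7.81 and 6.84 FPKM. Of 5 genes 4 were expressed, 2 lower and 2 higher, with a median of -0.23, which became 0.01 when CLSY1, below 1 FPKM in both libraries, was included.

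The CLASSY proteins place Pol IV at its target loci, and CLSY3 had the highest level of the 4 family members in both libraries. CLSY3 (AT1G05490) had 23.4 FPKM in myb98 ovules and 34.5 FPKM in wild-type ovules, and CLSY4 (AT3G24340) had 5.30 and 6.78 FPKM. CLSY1 (AT3G42670) had 0.128 and 0.121 FPKM and CLSY2 (AT5G20420) 0.0756 and 0.193 FPKM, both below 1 FPKM in each library. Per length, the level of CLSY3 was above that of NRPD1 in both libraries. The histone readers SHH1 (AT1G15215) and SHH2 (AT3G18380) had 5.36 and 7.40 FPKM, and 9.49 and 7.76 FPKM (myb98 first in each pair). The 4 expressed genes of this list had a median log2 ratio of -0.35, or -0.13 against genes of their length, and 0 passed the 2-fold rule.

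Of the genes that recruit Pol V or carry out RdDM with it, 13 of 14 were expressed, 11 lower and 2 higher, with a median log2 ratio of -0.40. Set against genes of the same length, the median was -0.36 with 11 of 13 below 0, and 0 of the 13 passed the 2-fold rule. IDN2 (AT3G48670), an RNA-binding protein of RdDM, had 6.68 FPKM in myb98 ovules and 13.8 FPKM in wild-type ovules. Its paralogs IDNL1 (AT1G15910) and IDNL2 (AT4G00380) had 8.04 and 15.3 FPKM, and 9.01 and 18.1 FPKM in the same order. All 3 lay among the lowest of their length groups, where 3.2% to 4.2% of genes had a lower ratio. KTF1 (AT5G04290), which binds AGO4 and Pol V transcripts, had 4.32 and 8.73 FPKM. The transcripts of these 4 genes were at 48.4% to 52.6% of their wild-type level, against 67.2% for NRPE1. They were named for the largest log2 ratios in size of the list, so their low places follow in part from that choice. The 2 higher genes, DMS3 and RDM1, were 0.47 and 0.36 above genes of their length. In FPKM without the pseudocount, IDN2 (48.4%), KTF1 (49.5%) and IDNL2 (49.7%) were lower by slightly more than 2-fold. The share of all expressed genes past 2-fold on that scale is not given here, so these 3 are not read as calls. With the pseudocount of 1 they fell short of the rule.

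Argonautes load what the Dicers cut, and their levels in these ovules covered a wide range. AGO9 (AT5G21150), known from the ovule for silencing in the germ line, had 256 FPKM in myb98 ovules and 328 FPKM in wild-type ovules, and AGO1 (AT1G48410), the main microRNA effector, had 97.7 and 87.3 FPKM. AGO2 (AT1G31280) had 7.81 and 11.8 FPKM, and AGO7 (AT1G69440), the partner of the TAS3 pathway, 3.94 and 4.64 FPKM. Of 9 expressed Argonautes 5 were lower and 4 higher, with a median of -0.03, or 0.24 against genes of their length, and 0 passed the 2-fold rule.

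**Figure D5:**
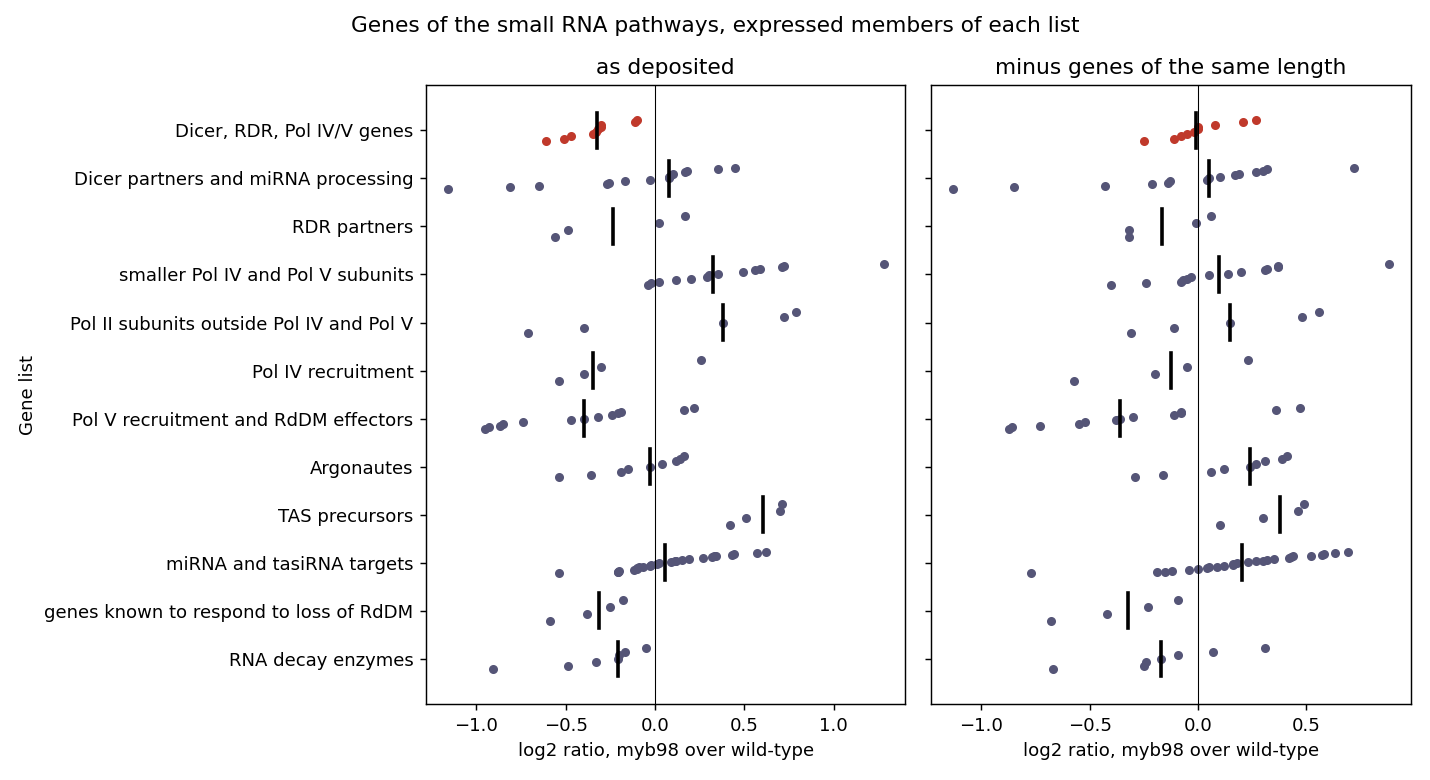
Log2 ratio, myb98 over wild-type, of the expressed genes of each list, as deposited (left) and after subtraction of the median of 500 genes of the same transcript length (right), with 1 point per gene and the list median as a bar. The 10 genes (red) move from a median of -0.33 to -0.01, while the list of Pol V recruitment and RdDM effectors has medians of -0.40 and -0.36.

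Trans-acting siRNA precursors are copied by RDR6 and cut by DCL4, and TAS3, TAS1C and TAS2, at 1 FPKM or more in both libraries, were higher in the myb98 library. TAS3 (AT3G17185) had 7.34 FPKM in myb98 ovules and 4.09 FPKM in wild-type ovules, and TAS1C (AT2G39675) had 3.95 and 2.05 FPKM. TAS2 (AT2G39681) had 5.02 and 3.23 FPKM and TAS1B (AT1G50055) 1.01 and 0.503 FPKM. Genes of this length were mostly higher in the myb98 library too. The log2 ratios of TAS3, TAS1C and TAS2 were 0.71, 0.70 and 0.51, or 0.49, 0.46 and 0.30 against genes of their length. Of those length groups, 83.2%, 84.6% and 78.2% had a lower ratio. TAS1A (AT2G27400) was under 1 FPKM in both, at 0.407 and 0.533 FPKM, and TAS4 (AT3G25795) was listed at 0 in both. TAS1B reached 1 FPKM in the myb98 library alone, the one in which it was higher, so no median is read over the expressed precursors, and 0 passed the 2-fold rule.

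Targets of microRNAs and trans-acting siRNAs showed 26 of 34 genes expressed, 11 lower and 15 higher (median 0.06, or 0.20 against genes of their length), and 0 past the 2-fold rule. TCP10 (AT2G31070) and TCP2 (AT4G18390), targets of miR319, had 4.89 and 2.83 FPKM, and 21.7 and 14.2 FPKM (myb98 first). ARF8 (AT5G37020), a target of miR167 known from ovule growth, had 11.6 and 8.28 FPKM, and SPL3 (AT2G33810), a target of miR156, had 4.97 and 7.65 FPKM. The TAS3 targets ARF3 (AT2G33860) and ARF4 (AT5G60450), named because TAS3 is described above, had 12.5 and 9.83 FPKM, and 1.70 and 1.13 FPKM in the same order. ARF2 (AT5G62000), another TAS3 target of the list, went the other way, with 35.6 FPKM in myb98 ovules and 41.5 FPKM in wild-type ovules. Its log2 ratio was -0.21, or 0.05 against genes of its length.

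Genes whose expression is known to respond to loss of RdDM were low in both libraries, apart from the demethylase gene ROS1. ROS1 (AT2G36490), which needs RdDM for its expression, had 7.53 FPKM in myb98 ovules and 11.8 FPKM in wild-type ovules. Its log2 ratio of -0.59 was -0.23 against genes of its length, of which 22.8% had a lower ratio. SDC (AT2G17690) had 0.731 and 1.26 FPKM, FWA (AT4G25530) 1.36 and 1.67 FPKM, QQS (AT3G30720) 0.958 and 1.33 FPKM, and APUM9 (AT1G35730) 0.0422 and 0.0417 FPKM. SDC and QQS reached 1 FPKM in the wild-type library alone, the one in which they were higher, so no count or median is read over the expressed genes of this list, and 0 passed the 2-fold rule.

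RNA decay enzymes compete with RDR6 for aberrant RNA. All 7 were expressed and lower, with a median of -0.21, and 0 passed the 2-fold rule. Against genes of their length 5 were below 0 and 2 above, with a median of -0.17. XRN2 (AT5G42540), a nuclear exonuclease, had 6.39 FPKM in myb98 ovules and 12.9 FPKM in wild-type ovules. At 49.5% of its wild-type level it was past 2-fold in FPKM, but not with the pseudocount. The share of all expressed genes past 2-fold without the pseudocount is not given here, so this is not read as a call. The cytoplasmic exonuclease gene XRN4 (AT1G54490) had 8.60 and 11.1 FPKM, the exosome helicase gene SKI2 (AT3G46960) 3.28 and 5.02 FPKM, and the decapping gene DCP1 (AT1G08370) 15.2 and 17.7 FPKM in the same order.

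The upstream sequences of the genes farthest below and above their length groups, DCL3 and NRPD1, are given because MYB98 is known to bind DNA that holds TAAC. Capitals mark TAAC on either strand in the 250 bases before the annotated start (TAIR10.1).
DCL3: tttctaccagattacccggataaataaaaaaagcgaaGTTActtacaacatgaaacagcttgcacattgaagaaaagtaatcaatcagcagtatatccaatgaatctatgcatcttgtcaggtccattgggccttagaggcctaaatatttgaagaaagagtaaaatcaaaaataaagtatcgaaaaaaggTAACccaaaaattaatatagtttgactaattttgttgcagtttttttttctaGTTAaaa
NRPD1: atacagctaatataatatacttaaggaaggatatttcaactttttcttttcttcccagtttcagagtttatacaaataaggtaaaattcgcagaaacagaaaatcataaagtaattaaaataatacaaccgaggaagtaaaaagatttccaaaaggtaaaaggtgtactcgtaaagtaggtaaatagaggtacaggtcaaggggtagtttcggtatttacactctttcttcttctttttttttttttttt
The DCL3 sequence (chr3:15753137-15753386, plus strand) held TAAC 3 times, and the NRPD1 sequence (chr1:23362590-23362839, minus strand) 0 times. Whether the count runs with the offsets was not tested. NRPD2, above its length group, also held TAAC 3 times, as did NRPE1. DCL4 held it 5 times, DCL1 4, RDR2 2, DCL2 and RDR6 1 each, and RDR1 0. Over the 10 genes 8 upstream sequences held it, all but those of RDR1 and NRPD1, against 89.2% of 27443 protein-coding genes, a share near that of the 10. The evening element AAATATCT of clock-controlled genes, the telo box AAACCCTA and the E2F site TTTCCCGC, on either strand, were in 0 of the 10 and in 4.79%, 4.49% and 0.620% of all genes. A match is a string of letters and not a binding site. The upstream sequences of DCL2, RDR2 and RDR6 overlap other annotated genes.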

How the data were processed

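The authors deposited FPKM for both libraries in 1 table. Its header names only the libraries, and the unit was read from the values and from Cuffdiff being named. The submitters' processing notes name TopHat2 2.0.14, Cuffdiff 2.2.1 and TAIR10. The sources used here state no annotation, strandedness or scaling between libraries. The table held 35548 identifiers, of which 1991 were blank in both libraries and 33557 had values.

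Transcript lengths (the longest annotated model), coordinates and sequences are of TAIR10.1 (RefSeq), whose annotation need not be the one counted, and 32802 identifiers matched it. Expressed genes are those that reached 1 FPKM in at least 1 of the libraries. Log2 ratios used a pseudocount of 1, which understates changes of low genes. The size rules were 4-fold and 2-fold and are no tests. Length groups were the 500 nearest expressed nuclear genes, a step checked on simulated data with planted changes of 2-fold or more. That check does not cover offsets as small as those of the 10 genes. Depth came from the lowest FPKM of single-transcript genes of at least 1500 nt, on which the 10 genes held about 521 to 2510 fragments in the myb98 library and 812 to 3250 in the wild-type library. Identity was from blastn 2.17.0, with Python 3.11.15 and pandas 2.3.3 for the rest.

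The members and lists were chosen with earlier results of these data known. All genes of lists with up to 6 members were named, and otherwise the 4 expressed genes with the largest log2 ratio in size.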

Additional observations from a re-analysis of the deposited data

How the results depend on the processing

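The 10 genes kept log2 ratios below 0 with pseudocounts of 0.1 and 5, with no filter, with median scaling and with FPKM rescaled to a sum of 1000000, and at least 5 FPKM in either library left 7 of them, all below 0. Their median of -0.33 became -0.20 with a pseudocount of 5, -0.01 against genes of the same transcript length, 0.01 against genes of the same length with 2 to 20 FPKM, and 0 against the 100 genes nearest in length, the last 2 chosen after seeing the data. In these 3 length settings 6, 4 and 5 of the 10 were below 0. Under all 9 alternatives 0 of the 10 passed either size rule. Pathway list genes past the 2-fold rule numbered 2, and became 5 with a pseudocount of 0.1, and 1 each with a pseudocount of 5 and in the 3 length settings. Of all expressed genes, 2.74% passed this rule downward and 2.95% upward in the main setting. Those shares are not given here for the alternatives, so the counts are not read as a result about the lists. Of the list medians, that of the Argonautes changed sign when rescaled and in the 3 length settings. That of the RDR partners, -0.23, was 0.01 with no filter and -0.49 at 5 FPKM or more. The list of other RDR genes and NRPD2B, with 1 expressed gene, changed sign when rescaled and in the length settings and was 0 with no filter. No paired analysis was possible because each genotype has 1 library, which also leaves no replicate to leave out. Depth limits the miRNA precursors, and lengths rest on the longest annotated transcript.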
